A study of Mus musculus with 7 samples.

Results

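The 8 genes described here encode the ferritin chains and the proteins that load ferritin, degrade it and sense iron in mouse hematopoietic stem cells (HSCs). They were chosen by name: Fth1 and Ftl1, the heavy and light chains of ferritin; Pcbp1 and Pcbp2, chaperones that hand iron to ferritin; Ncoa4, the receptor that takes ferritin to the lysosome; Aco1 and Ireb2, the iron-regulatory proteins (IRPs); and Fbxl5, which marks the IRPs for destruction. All 8 were found among the 55855 gene identifiers of the deposited table by their GENCODE M21 symbols, and all 8 were among the 13948 genes tested. RNA was sequenced from bone marrow HSCs of mice aged 2 months, in 3 libraries labelled Fth1fl/fl (control; the series text calls this group wild type) and 4 labelled Fth1△/△ (Fth1-deleted). The series text describes a conditional deletion in the hematopoietic system. The Cre driver, the exons removed, the markers of the sort and whether each library came from its own mouse are not given in the sources used here, so the p-values measure the spread between libraries.

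Ferritin is a hollow shell of mixed heavy and light chains. The heavy chain oxidises ferrous iron so that it can be stored, and the light chain helps the mineral form inside. When iron is scarce, the IRPs bind a hairpin called the iron-responsive element. In the 5′ UTR of ferritin mRNA this blocks translation, and in the 3′ UTR of the transferrin receptor mRNA it protects the message from decay. When iron is plentiful, ACO1 takes up an iron-sulfur cluster and works as an aconitase, while IREB2 is degraded through FBXL5, itself stabilised by iron. Much of this control acts on translation and protein stability, which RNA levels do not measure.

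The iron-responsive elements of the ferritin chains are shown because they are the sequence feature that Fth1 and Ftl1 have in common, and Slc40a1 (the iron exporter) and Tfrc (the transferrin receptor) are added as targets of the same proteins. Sequences are from GENCODE M21 transcripts on GRCm38, written 5′ to 3′ with T for U. Capitals mark the unpaired C and the loop.
Fth1, 5′ UTR, chr19:9982732-9982759, plus strand: ttcctgCttcaaCAGTGCttgaacggaa
Ftl1, 5′ UTR, chr7:45459780-45459807, minus strand: gtcttgCttcaaCAGTGTttgaacggaa
Slc40a1, 5′ UTR, chr1:45925466-45925493, minus strand: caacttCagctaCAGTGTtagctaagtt
Tfrc, the first of 4 in its 3′ UTR, chr16:32631219-32631246, plus strand: aattatCggaagCAGTGCcttccataat
The search, on the transcript strand, was for a C, 5 bases, the loop CAGTGN and 5 more bases able to pair with the first 5, G with T included. It matched the 5′ UTR of 31 of 20597 coding genes (0.151%) and the 3′ UTR of 128 of 20995 (0.61%). Fth1 and Ftl1 were the members with a match, and the other 6 had none in either UTR. Alas2, of the target list below, also had a match in the 5′ UTR. The number given for Tfrc counts matches to this search only, and elements of another form would be missed. The elements of Fth1 and Ftl1 begin 87 and 78 bases from the transcript start and are identical at 25 of 28 bases. The differences, counted from 1 at the 5′ end with the Fth1 base first, are T1G, C4T and C18T, the last of them in the loop.

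The promoters of the ferritin genes are shown because both hold a CCAAT box, the site of the NF-Y factors whose genes are described below. Each run is the 250 bases before the RefSeq transcript start (GRCm38.p6), with CCAAT on either strand in capitals. Fth1 has a second annotated start further upstream, whose window holds no CCAAT.
Fth1, chr19:9982396-9982645, plus strand: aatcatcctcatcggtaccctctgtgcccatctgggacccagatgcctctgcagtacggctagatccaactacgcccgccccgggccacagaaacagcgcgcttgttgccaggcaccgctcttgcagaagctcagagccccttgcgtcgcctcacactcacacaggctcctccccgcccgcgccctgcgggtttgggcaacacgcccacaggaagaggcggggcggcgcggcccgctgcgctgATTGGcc
Ftl1, chr7:45459887-45460136, minus strand: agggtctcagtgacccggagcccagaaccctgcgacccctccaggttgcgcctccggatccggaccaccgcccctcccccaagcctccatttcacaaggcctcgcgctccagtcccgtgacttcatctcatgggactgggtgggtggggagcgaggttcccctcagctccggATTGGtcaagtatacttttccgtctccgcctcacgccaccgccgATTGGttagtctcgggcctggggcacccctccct
Of the 7 members with a promoter in the RefSeq table, these 2 held CCAAT, which was found in 33.8% of all 32851 windows of this length. The core of the antioxidant response element, TGACNNNGC on either strand, was found in 1 window of the members, at a start of Ncoa4, and in 10.2% of all windows. A match to these letters is a description of the sequence and does not show binding.

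Values are the authors' FPKM, read counts scaled by gene length and by the counted reads of the library. Counted reads, read back from the values, ranged from 12058392 to 15453168 per library, and the members had 505 to 11028 reads each. Counting error, taken from a member's mean reads in a group, was 1.06% to 3.96% of its level. Between control libraries the median coefficient of variation was 30.9%, and between Fth1-deleted libraries 26.3%, over the 10475 genes with more than 100 reads on average. All 14 HSC markers listed were detected, at a summed FPKM of 1312 to 2145 in control and 1078 to 1432 in Fth1-deleted libraries, and 2 of the 14 were lower in every Fth1-deleted library, beside 5.55% of all genes. Ribosomal RNA genes took 0.266% to 1.09% of reads in control and 1.44% to 1.57% in Fth1-deleted libraries, without overlap, so this share and the genotype cannot be told apart. Reads of Y-linked genes were present in control 2 and in Fth1-deleted 1, 2 and 3. The mitochondrial mt-Co2 was at 2468 and 1750 FPKM in control 1 and Fth1-deleted 3 and at 60.8 to 77.2 in the other libraries. A lower level can mean fewer cells of one kind or less RNA per cell, which bulk libraries do not separate.

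Heavy chain RNA was lower and light chain RNA higher in all Fth1-deleted libraries than in all control libraries, and the other 6 members overlapped between the groups. Not overlapping were thus 2 of 8 members, where 9.65% of the genes tested did not overlap (5.55% lower and 4.1% higher in Fth1-deleted). By limma over all genes, with a threshold of 0.05 on adjusted p, 0 of the 8 members passed, where 8 of 13948 genes did (0.0574%; 4 higher, 0.0287%, and 4 lower, 0.0287%). An unadjusted limma p below 0.05 was found for 2 of the 8, Fth1 and Ftl1, and for 9.83% of all genes. The median difference of log2(FPKM + 1), Fth1-deleted minus control, was -0.0050 over the 8 and -0.02 over all genes tested.

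Fth1 RNA, the product of the targeted gene, was lower in every Fth1-deleted library than in every control library, but a large part of it was still counted. Fth1 (ENSMUSG00000024661) lies on chromosome 19 from 9980598 to 9985098 on the plus strand of GRCm38. Its FPKM was 552, 659 and 638 in control 1 to 3 and 202, 333, 358 and 114 in Fth1-deleted 1 to 4. The Fth1-deleted libraries thus kept 18.5% to 58.1% of the mean control level, worth 1522 to 4135 reads, and differed 3.14-fold among themselves against 1.19-fold among controls. By rank among the 13948 genes tested, Fth1 stood at 108 to 142 in control libraries and at 237 to 1223 in Fth1-deleted ones.

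The group means of Fth1 were 616 ± 56.5 (SD, n = 3) and 252 ± 114 FPKM (n = 4). The difference of log2(FPKM + 1) was -1.42 (SE 0.33, 95% interval -2.13 to -0.71). It did not pass the threshold over all genes (limma adjusted p = 0.193, Benjamini-Hochberg), with 0.0491 to 0.684 over the alternatives, and an exact permutation test of the libraries (two-sided, 35 splits) gave p = 0.0571. The smallest p that design allows is 0.0286. A term for Y-linked reads brought the adjusted p to 0.0491 in the same limma test, with a difference of -1.74. Among libraries with Y-linked reads, Fth1 was at 659 in control 2 and at 202 to 358 in Fth1-deleted 1 to 3, and among those without, at 552 and 638 in control and 114 in Fth1-deleted 4. With the ribosomal RNA share as a covariate the difference was -1.36 (SE 0.74). The deposited values are per gene and do not show from which exons the remaining reads came.

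**Figure D1:**
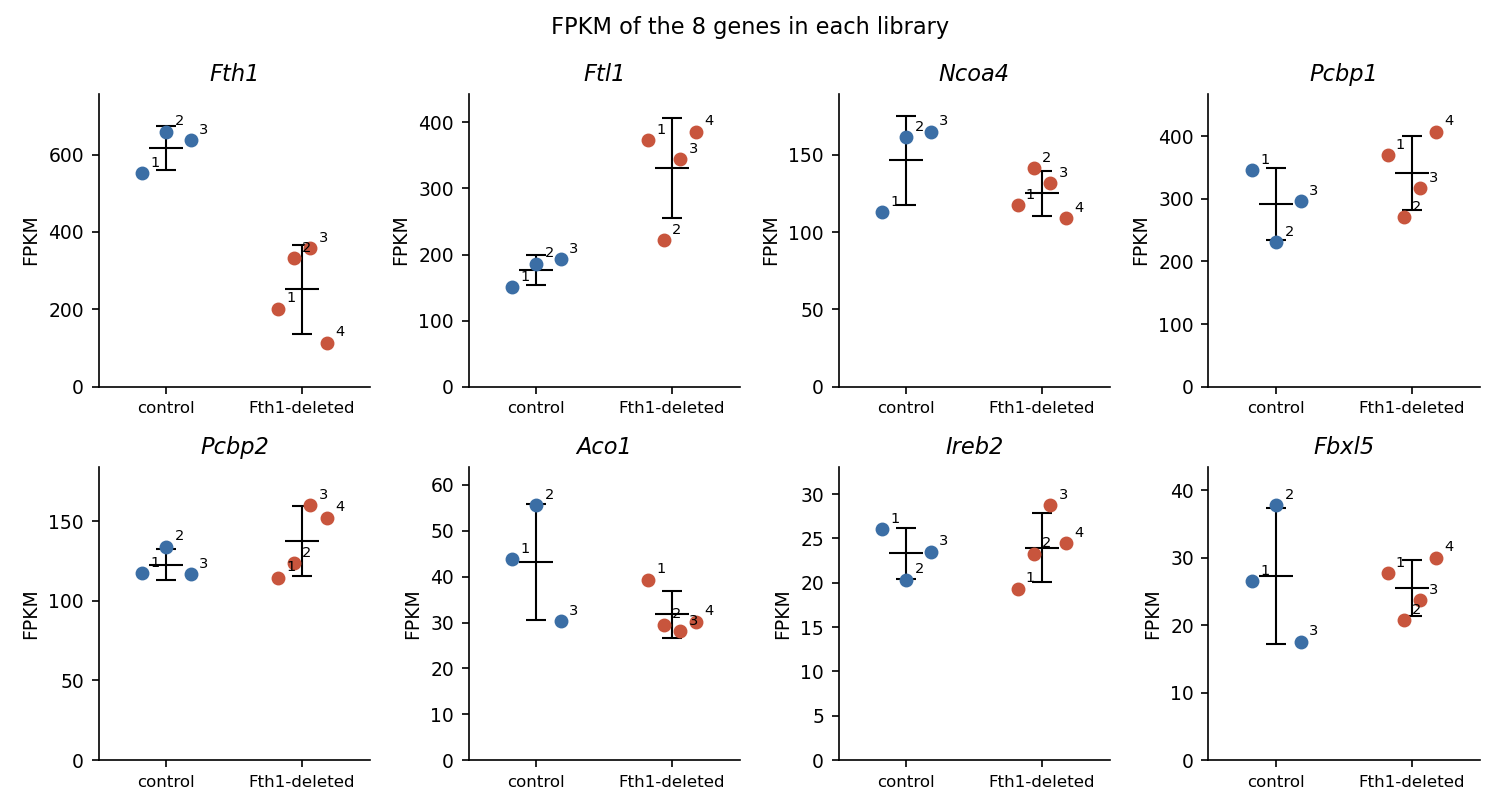
FPKM (linear axis from 0) of the 8 genes in each of the 3 control (blue) and 4 Fth1-deleted libraries (red); numbers are replicate numbers, bars are mean ± SD. Fth1 (552 to 659 against 114 to 358) and Ftl1 (150.3 to 194 against 222 to 386) are the 2 genes whose groups do not overlap.

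Ftl1, the light chain, went the other way. Ftl1 (ENSMUSG00000050708, chromosome 7, 45457944 to 45459884, minus strand) had an FPKM of 150.3, 186 and 194 in control and 373, 222, 344 and 386 in the Fth1-deleted group. Every Fth1-deleted library was above every control library, and Fth1-deleted 2 was the nearest to control. The means were 177 ± 23.2 (SD, n = 3) and 331 ± 75.2 FPKM (n = 4), a ratio of 1.87. The difference of log2(FPKM + 1) was 0.88 (SE 0.21, 95% interval 0.41 to 1.34), and this too missed the threshold over all genes (limma adjusted p = 0.219, with 0.103 to 0.684 over the alternatives). The exact permutation test gave p = 0.0571. Among libraries with Y-linked reads Ftl1 was at 186 in control 2 and at 222 to 373 in Fth1-deleted ones, and among those without, at 150.3 and 194 in control and 386 in Fth1-deleted 4. With the ribosomal RNA share as a covariate the difference was 0.75 (SE 0.47).

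Ftl1 has near-identical copies in the genome, which can share its reads. Its transcript aligned over 94.0% of its length to Ftl1-ps1 at 99.6% identity, and over 57.0% to the processed pseudogene Gm15590 at 99.1%. Ftl1-ps1 itself was at 2.42, 2.60 and 3.02 FPKM in control and 4.89, 6.26, 5.24 and 8.13 in the Fth1-deleted group, again without overlap. All 9 copies together took 2.03% to 4.69% of the reads of Ftl1 and its copies. The values hold only reads assigned to a gene, so any left unassigned between Ftl1 and a copy are not in this share. With their reads added, the level was 182 ± 21.4 (SD, n = 3) and 344 ± 78.0 FPKM (n = 4), and the log2 difference was 0.89 (exact permutation p = 0.0571). A single copy of Fth1 met the same limits, Gm6977, listed at 0 in every library.

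The 2 ferritin chains together gave 703, 845 and 831 FPKM in control and 575, 554, 702 and 500.0 in the Fth1-deleted group. The groups did not overlap, but the lowest control (702.6 in control 1) and the highest Fth1-deleted value (702.3 in Fth1-deleted 3) all but met. A sum of 2 genes depends on the gene lengths used. Per kilobase of the longest coding transcript (described below), the summed groups overlapped. Control 1 then had 333 for Fth1 and 118 for Ftl1, less in sum than Fth1-deleted 3 (216 and 270). As deposited, the mean sum was 793 ± 78.6 (SD, n = 3) and 583 ± 85.7 (n = 4), a log2 difference of -0.45 (exact permutation p = 0.0571, 0.114 adjusted over the 4 measures of this kind). The makeup of the sum differed more than its size. The ratio of Ftl1 to Fth1 FPKM was 0.272, 0.283 and 0.304 in control libraries, a narrow range. It was 1.85, 0.666, 0.961 and 3.38 in Fth1-deleted libraries, so that light chain FPKM exceeded heavy chain FPKM in Fth1-deleted 1 and 4. Per kilobase of the longest coding transcript, Ftl1 also exceeded Fth1 in Fth1-deleted 3 (270 and 216). The log2 ratio was higher by 2.31 in the Fth1-deleted group, or 4.95-fold (exact permutation p = 0.0571, 0.114 adjusted). A ratio within a library does not depend on scaling between libraries. The highest ratio, in Fth1-deleted 4, combined the lowest Fth1 and the highest Ftl1 of all 7 libraries, and the lowest of the group, in Fth1-deleted 2, its lowest Ftl1.

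**Figure D2:**
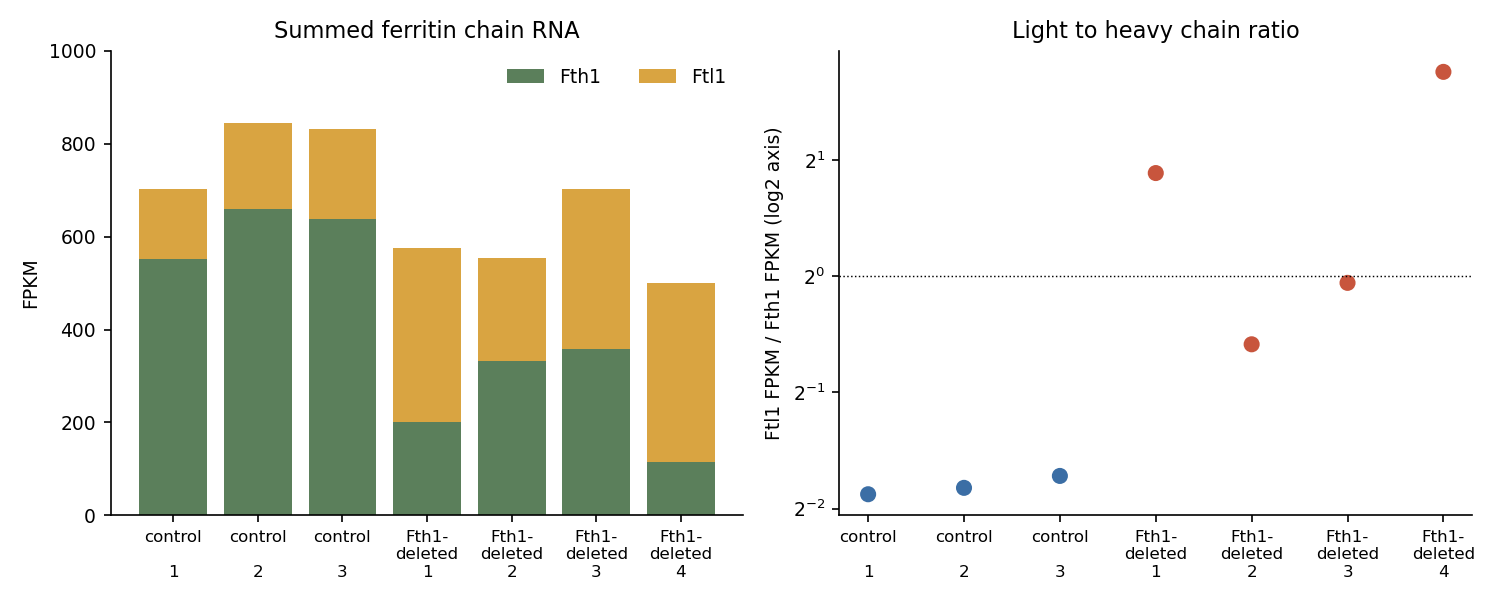
Left, FPKM of Fth1 and Ftl1 stacked for each library (linear axis from 0); right, their ratio in each library on a log2 axis, with the dotted line at equal levels. The control ratios lie at 0.272 to 0.304 and the Fth1-deleted ratios at 0.666 to 3.38.

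Of the proteins that move iron into ferritin and ferritin into the lysosome, none had groups without overlap or passed the test. Pcbp1 (ENSMUSG00000051695, chromosome 6, 86524492 to 86526321, minus strand), a gene with a single exon, was the most abundant after Fth1 in control libraries. Its FPKM was 346, 231 and 297 in control and 369, 271, 317 and 407 in the Fth1-deleted group, with overlap. The log2 difference was 0.23 (SE 0.20, 95% interval -0.20 to 0.66; limma adjusted p = 0.725). It was 0.07 without control 2, 0.36 without control 1 and 0.68 with the ribosomal RNA share as a covariate.

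Pcbp2 (ENSMUSG00000056851, chromosome 15, 102470539 to 102500061, plus strand), its paralog, works beside it in iron delivery. It was at 117, 134 and 117 FPKM in control and 114, 124, 160 and 152 in the Fth1-deleted group. Fth1-deleted 3 and 4 were above the controls and Fth1-deleted 1 below them. The log2 difference was 0.15 (SE 0.19, 95% interval -0.26 to 0.57; limma adjusted p = 0.807). It was 0.08 without Fth1-deleted 3, 0.24 without Fth1-deleted 1 and -0.13 with the ribosomal RNA share as a covariate. The ratio of Pcbp1 to Pcbp2 was 1.73 to 2.95 in control and 1.98 to 3.23 in Fth1-deleted libraries, a log2 difference of 0.07 (exact permutation p = 0.8), whose sign changed under quantile normalization and without control 2 or Fth1-deleted 1. Pcbp2 overlaps Map3k12 on the opposite strand by 2416 bases, and whether reads were counted by strand is not given in the sources used here. Map3k12 was at 2.12 to 9.46 FPKM.

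Ncoa4 (ENSMUSG00000056234, chromosome 14, 32159865 to 32179855, plus strand) was at 113, 161 and 165 FPKM in control and 117, 142, 132 and 109 in the Fth1-deleted group. Control 1 lay with the Fth1-deleted libraries, and control 2 and 3 above them. The means were 147 ± 29.0 (SD, n = 3) and 125 ± 14.5 FPKM (n = 4), with a log2 difference of -0.21 (SE 0.20, 95% interval -0.65 to 0.22; limma adjusted p = 0.744). It was -0.39 without control 1, -0.13 without control 2 and -0.12 without control 3. A processed pseudogene, Gm6768, is 99.9% identical to 46.2% of the Ncoa4 transcript and took 8.52% to 16.3% of the reads of the pair. With those reads added, the log2 difference was -0.23 (exact permutation p = 0.229). Any reads left unassigned between the pair are not included.

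The iron sensors were the least abundant members. Aco1 (ENSMUSG00000028405, chromosome 4, 40143081 to 40198338, plus strand) was at 43.8, 55.6 and 30.4 FPKM in control and 39.4, 29.5, 28.2 and 30.2 in the Fth1-deleted group. Control 3 lay within the Fth1-deleted range, and the other 2 controls above it. The log2 difference was -0.40 (SE 0.28, 95% interval -1.01 to 0.21; limma adjusted p = 0.670). Without control 2 it was -0.20, and without control 3 -0.63. With the ribosomal RNA share as a covariate it was -1.13, still not past the threshold (limma adjusted p = 0.493).

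Ireb2 (ENSMUSG00000032293, chromosome 9, 54863789 to 54912530, plus strand) was at 26.1, 20.3 and 23.5 FPKM in control and 19.3, 23.3, 28.7 and 24.5 in the Fth1-deleted group. Its means, 23.3 ± 2.87 (SD, n = 3) and 23.96 ± 3.87 FPKM (n = 4), were the closest of the 8 genes. The log2 difference was 0.03 (SE 0.29, 95% interval -0.59 to 0.66; limma adjusted p = 0.978), an interval that leaves room for a change of 0.662-fold to 1.58-fold. The ratio of Aco1 to Ireb2 was 1.68, 2.73 and 1.29 in control and 2.03, 1.27, 0.981 and 1.23 in the Fth1-deleted group, a log2 difference of -0.44 (exact permutation p = 0.286, 0.381 adjusted over the 4 measures). Without control 2 this was -0.15, without control 3 -0.69, and without Fth1-deleted 3 -0.30. For Ireb2 itself the sign changed without control 2 or Fth1-deleted 3.

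Fbxl5 (ENSMUSG00000039753, chromosome 5, 43744615 to 43821638, minus strand), the receptor subunit of the ubiquitin ligase that removes the IRPs, was at 26.5, 37.7 and 17.5 FPKM in control. In Fth1-deleted libraries it was at 27.7, 20.7, 23.7 and 30.0, all within the control range. The log2 difference was -0.04 (SE 0.32, 95% interval -0.74 to 0.66; limma adjusted p = 0.975). Its sign changed with library weights and without control 2 (0.22) or Fth1-deleted 2 (0.05), and without control 3 it was -0.31. With the ribosomal RNA share as a covariate it was -1.07. Between control libraries the coefficient of variation was 29.2% for Aco1 and 37.1% for Fbxl5, on either side of the control median of 30.9% given above. In both genes control 2 was the highest and control 3 the lowest.

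**Figure D3:**
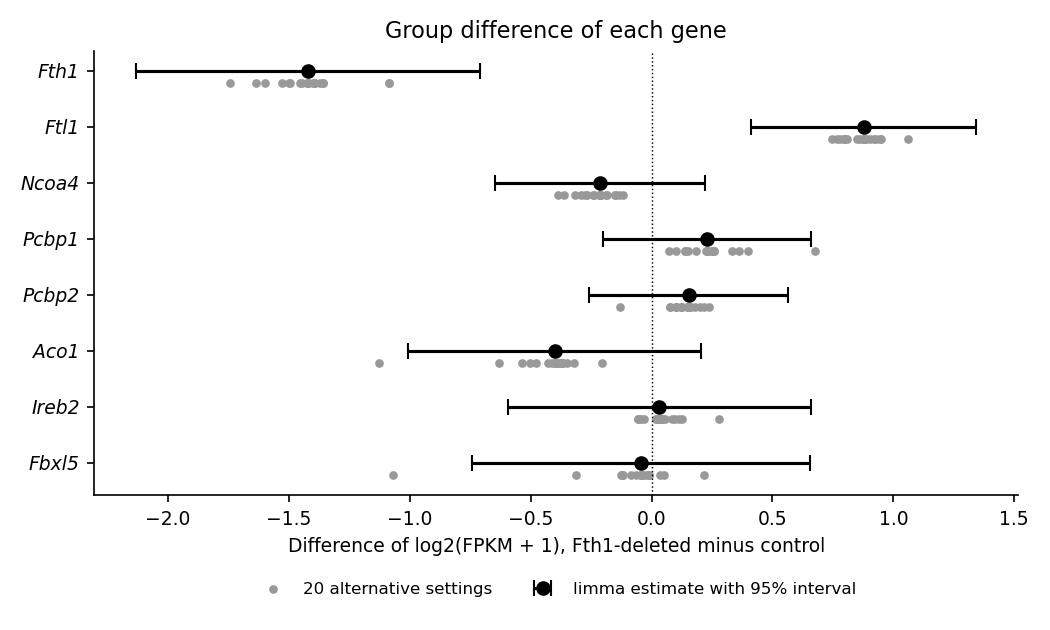
Difference of log2(FPKM + 1), Fth1-deleted minus control, for each gene: black points and bars are the limma estimate and its 95% interval, grey points the same estimate under the 20 alternative settings. The intervals of Fth1 (-2.13 to -0.71) and Ftl1 (0.41 to 1.34) lie to one side of 0, and those of the other 6 genes include it.

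The order of the members' levels in control libraries was Fth1, Pcbp1, Ftl1, Ncoa4, Pcbp2, Aco1, Fbxl5 and Ireb2, by mean FPKM. The control values of Ftl1 and Ncoa4 overlapped, as did those of Ncoa4 and Pcbp2, of Aco1 and Fbxl5, and of Fbxl5 and Ireb2, so the order within these pairs is not larger than their spread. In the Fth1-deleted group Pcbp1 (341 ± 59.6 FPKM, SD, n = 4) and Ftl1 (331 ± 75.2) stood above Fth1 (252 ± 114) by mean. By library, Fth1 was below both in Fth1-deleted 1 and 4. It was above Pcbp1 and Ftl1 in Fth1-deleted 2 (333 against 271 and 222) and 3 (358 against 317 and 344).

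Levels across genes also depend on the length used. The deposited FPKM match a gene length equal to the mean of all annotated transcripts, which is short for genes with many partial transcripts. Pcbp2, with 31 transcripts, has a mean length of 1105 bases and a longest coding transcript of 3222, and Aco1 has 1399 and 3832. Per kilobase of the longest coding transcript, control levels were 372 ± 34.1 for Fth1, 291 ± 57.6 for Pcbp1, 139 ± 18.2 for Ftl1, 58.3 ± 11.5 for Ncoa4 and 42.0 ± 3.36 for Pcbp2 (FPKM rescaled, SD, n = 3). The sensors came closer together, with Fbxl5 at 15.97 ± 5.93, Aco1 at 15.8 ± 4.61 and Ireb2 at 14.0 ± 1.72. The higher level of Aco1 over Ireb2 in FPKM (43.3 ± 12.6 and 23.3 ± 2.87) was thus mostly gone on this length, where their control values overlapped, and so did those of Fth1 and Pcbp1. Differences between groups within a gene are not touched by the choice of length, but the sum of the ferritin chains is.

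**Figure D4:**
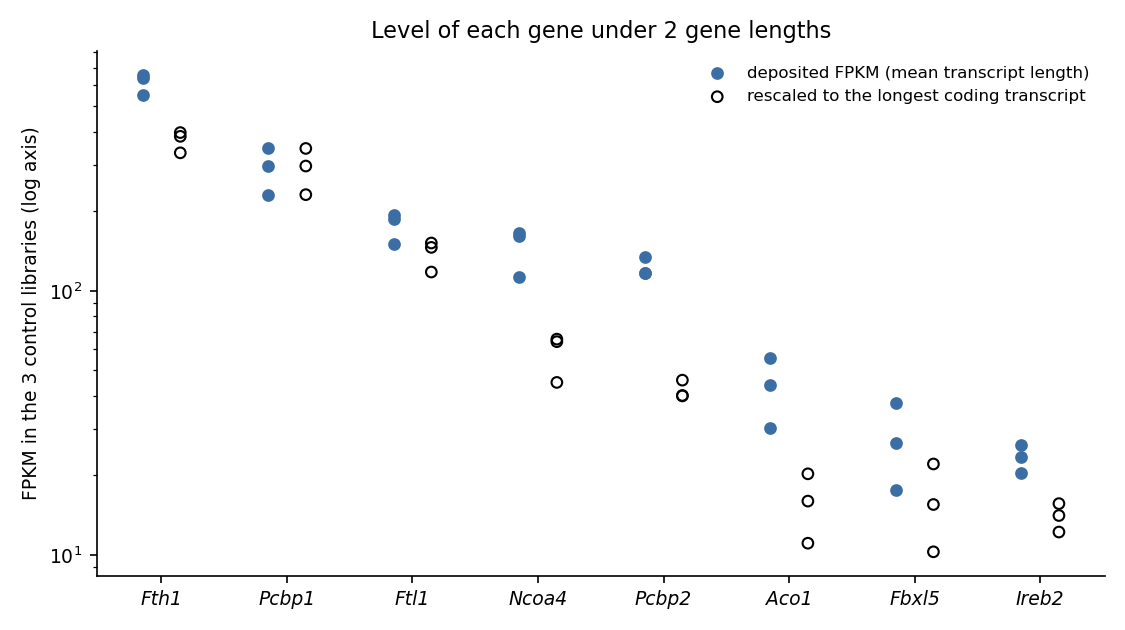
Level of each gene in the 3 control libraries on a log axis, as deposited FPKM (blue) and rescaled to the longest coding transcript (open circles). Aco1, Fbxl5 and Ireb2 lie at 17.5 to 55.6 FPKM as deposited and at 10.3 to 22.1 after rescaling.

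Genes whose profile was most like that of Ftl1 were taken from 9482 named genes whose mean FPKM was 5 or more, by the root mean square difference of log2(FPKM + 1) over the 7 libraries after each gene's mean was subtracted. The nearest was Gclm, the modifier subunit of the enzyme that starts glutathione synthesis, at 0.083 where the median gene was at 0.67. Gclm was at 64.8, 82.9 and 83.4 FPKM in control and 162, 99.4, 172 and 157 in the Fth1-deleted group, with Fth1-deleted 2 again the lowest of its group. Leo1, a subunit of the PAF1 transcription complex (0.092), Fam207a (0.158), Atp6v1e1, a subunit of the proton pump of lysosomes (0.165), and Ngly1, which removes sugar chains from misfolded proteins (0.165), followed. For Fth1 the nearest were Cbx7, a Polycomb protein (0.267), Dennd4c (0.289), Ccdc28a (0.290), Zfp955b (0.305) and Itsn1, an endocytic scaffold (0.308), where the median gene was at 0.95. All 10 had limma adjusted p-values above 0.05, the smallest being 0.193 for Itsn1. With 7 libraries in 2 groups, such likeness includes the group difference itself.

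Of the mRNAs known or proposed to carry iron-responsive elements, 10 were listed and 10 tested, 0 rose, 0 fell and 0 had groups without overlap, with a median log2 difference of 0.02 (-0.02 over all genes tested). Tfrc, which IRP binding protects, was at 59.7, 21.97 and 30.9 FPKM in control and 58.7, 37.2, 55.1 and 54.5 in the Fth1-deleted group (limma adjusted p = 0.628). Control 1 lay above all the others, and the other 2 controls below all Fth1-deleted libraries. Hif3a, a hypoxia-inducible factor subunit, was at 13.3 ± 5.77 (SD, n = 3) and 6.91 ± 3.61 (n = 4; limma adjusted p = 0.608). Slc40a1, whose element is printed above, was at 15.7 ± 9.86 and 22.7 ± 13.9 FPKM.

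Of the 23 genes of ferritin turnover and autophagy, 0 rose and 0 fell, and 0 had groups without overlap. Their median log2 difference was -0.19, and 7 of 23 were positive. Map1lc3b, the autophagosome membrane protein, was at 123, 81.4 and 135 FPKM in control and 66.3, 73.1, 82.5 and 81.1 in the Fth1-deleted group, so that Fth1-deleted 3 lay just above control 2 (log2 difference -0.54, SE 0.22, limma adjusted p = 0.454). Atg9a, a lipid scramblase of early autophagosomes, was at 16.1 ± 5.97 (SD, n = 3) and 7.89 ± 2.04 (n = 4; limma adjusted p = 0.520). Herc2, the ubiquitin ligase that turns over NCOA4, was at 23.2 ± 6.99 and 26.9 ± 7.77, and Tax1bp1, an autophagy receptor, at 107 ± 17.6 and 114 ± 12.1 FPKM.

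Of 18 listed symbols of the FBXL5 ligase and of iron-sulfur cluster targeting, 14 matched the table and were tested. The 4 unmatched symbols were second names of genes that did match. Of the 14 genes, 0 rose and 0 fell, 11 were positive, and the median was 0.19. The ligase subunits Skp1a (270.3 ± 12.4 and 312 ± 57.0 FPKM), Cul1 (159 ± 36.3 and 138 ± 9.70) and Rbx1 (71.6 ± 8.96 and 95.1 ± 25.6) all overlapped between the groups. The genes with the smallest p were Ciapin1 (33.3 ± 6.76 and 48.4 ± 8.92; limma adjusted p = 0.545) and Nubp2 (46.3 ± 29.8 and 68.5 ± 6.11; 0.577), which act in building cytosolic iron-sulfur clusters.

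Among 10 partners and relatives of the iron chaperones, 1 rose, 0 fell and 9 did not pass, where 0.0287% of all genes tested rose and 0.0287% fell. The one was Hmox1, which frees iron from heme, at 17.2, 23.0 and 26.2 FPKM in control and 138, 93.5, 109.8 and 65.2 in the Fth1-deleted group (log2 difference 2.12, SE 0.28, limma adjusted p = 0.0213). The call was lost in 9 of 20 alternatives, with a difference of 1.93 to 2.31 over all 20 and limma adjusted p-values of 0.0168 to 0.684. Among these were limma-voom (0.205) and leaving out control 3 (0.0548) or Fth1-deleted 1 (0.0615), 2 (0.0596) or 3 (0.0806). The paralog Pcbp4 was uneven in control, at 33.9, 0 and 17.5 FPKM, and at 19.9, 22.4, 44.9 and 34.8 in Fth1-deleted libraries. Pcbp3 was at 45.6, 5.61 and 19.7 FPKM in control and 14.99, 8.67, 13.5 and 16.8 in the Fth1-deleted group. Both paralogs overlapped between the groups.

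Of the 14 listed regulators of ferritin gene transcription, 0 rose and 0 fell; 3 had groups without overlap, 2 lower and 1 higher, beside 9.65% over all genes. Nfyb, a subunit of the CCAAT-binding factor NF-Y, was at 24.9, 15.9 and 21.003 FPKM in control and 46.4, 29.8, 44.8 and 35.4 in the Fth1-deleted group (log2 difference 0.89, SE 0.29, limma adjusted p = 0.367). Nfe2l2, which encodes the antioxidant regulator NRF2, was at 62.3, 83.3 and 66.4 FPKM in control and 40.1, 48.5, 36.0 and 50.9 in the Fth1-deleted group (log2 difference -0.68, SE 0.23, limma adjusted p = 0.385). Pias3, chosen after its values were seen, was at 34.3 ± 6.62 (SD, n = 3) and 16.8 ± 6.47 (n = 4; limma adjusted p = 0.402). Bach1, the heme-sensing repressor of ferritin genes, was at 30.2 ± 8.57 and 27.5 ± 6.67, with overlap.

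**Figure D5:**
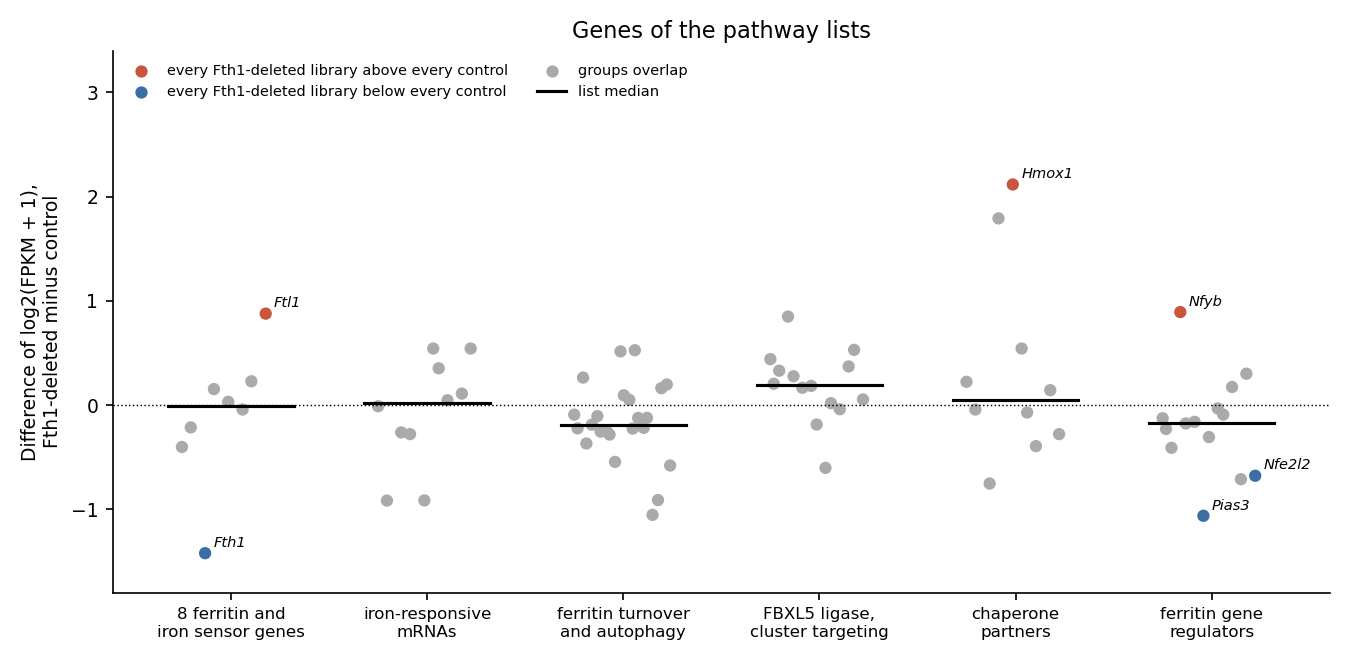
Difference of log2(FPKM + 1), Fth1-deleted minus control, for every tested gene of the 6 lists; black lines are list medians, red and blue points are genes whose groups do not overlap. The medians lie between -0.19 and 0.19, and Hmox1 at 2.12 is the one gene past the limma threshold.

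Markers of other cell types were looked for beside these results. Of 14 macrophage markers 13 were tested, and 2 had all Fth1-deleted libraries above all controls, beside 4.1% of all genes. These were Cd68, at 3.14 to 11.8 FPKM in control and 20.1 to 25.95 in Fth1-deleted libraries, and the complement gene C1qb, at 0 to 6.48 and 11.7 to 33.3. Their summed FPKM was 86.5, 56.8 and 69.1 in control and 217, 83.3, 131 and 88.7 in the Fth1-deleted group. Adgre1, Marco and Fcgr1 were listed at 0 in every control library, and Adgre1 reached 4.88 FPKM at most. Fth1-deleted 2 had the lowest Ftl1 and the lowest macrophage sum of its group (222 and 83.3), and Fth1-deleted 4 the highest Ftl1 (386) with a sum of 88.7. Of 12 erythroid markers, 10 were tested. Their sum was 281 to 840 FPKM in control and 213 to 795 in Fth1-deleted libraries, and none of the 12 had groups without overlap. Neutrophil markers summed to 156 to 360 FPKM in control and 186 to 564 in Fth1-deleted libraries, with Mmp8 and Ly6g at 0 in all libraries, and 1 of 12, Mpo, was higher without overlap (0.255 to 3.63 against 15.4 to 134.8). B cell markers summed to 12.1 to 26.2 and 24.2 to 87.8 FPKM in the 2 groups, with Vpreb1, Igll1, Ebf1 and Ms4a1 among those at 0 in control, and 1 of 8, Vpreb1, was higher without overlap. Mast cell and basophil markers summed to 0 to 12.9 and 16.04 to 53.4, without overlap, with Mcpt8 and Prss34 at 0 in all libraries. Of these 8, Cpa3 alone was higher without overlap (0 to 6.55 against 16.04 to 35.7). Endothelial markers summed to 119 to 208 and 143 to 214, and 0 of 6 were without overlap. The part of such cells in the ferritin values was not tested.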

How the data were processed

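RNA was measured in 7 libraries of mouse bone marrow HSCs. Per the series text and the submitters' processing notes, the authors aligned paired-end reads to GRCm38 with HISAT2 2.0.4, counted reads per gene with HTSeq 0.9.1 and deposited FPKM computed from gene length and read number. The annotation release, the strand setting and any filter are not given in the sources used here. Per the labels, libraries were made from polyA RNA. FPKM times the mean transcript length of GENCODE M21 fell on whole multiples of a step for 98.8% to 99.4% of values under 50 reads (within 0.05 reads), which gave the reads.

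Genes whose mean FPKM was 1 or more were tested as log2(FPKM + 1) with limma 3.58.1 in R 4.3.3 (trend, two-sided, no covariate), p-values were adjusted by Benjamini-Hochberg, and the threshold was 0.05. This scale understates changes of low genes. Single measures were compared by two-sided exact permutation. The limma script was tested on simulated data. Copies were found with blastn 2.17.0 (at least 90% identity over at least 200 bases and 35% of the member). Markers and pathway lists, members and tests were chosen with earlier results of these data known.

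All members are named, with up to 4 genes of each list past the threshold or else the 2 with the smallest p, and the 5 genes most like Fth1 and Ftl1. Further list genes and the markers without overlap are given as background, and were chosen after their values were seen. Alternatives were other pseudocounts (0.1 and 5), filters, scalings, variance models, covariates, a replicate block, limma-voom and each library left out. Copies added and the longest transcript as length were chosen after seeing the data.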

Additional observations from a re-analysis of the deposited data

How the results depend on the processing

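The number of genes past the limma threshold, 8 of 13948, depended on the setting. It was 0 with no filter (1504 genes at an unadjusted limma p under 0.05), 0 with limma-voom on the recovered reads (1470), 17 without a trend, 2 with the ribosomal RNA covariate and 17 with the Y-linked term. With 1 library left out it ranged from 0 to 19: 19 without control 1, 13 without control 2, 0 without control 3 (1335 genes at an unadjusted limma p under 0.05) and 1 without Fth1-deleted 3. The members past the threshold were 0 in each alternative except the Y-linked term, which gave 1 (Fth1, -1.74). Fth1 stayed lower in 21 of 21 alternatives (-1.74 to -1.09, or -1.63 to -1.09 with 1 library left out) and Ftl1 higher in 21 of 21 (0.75 to 1.06). Some could not move the estimates: no filter, a mean FPKM of at least 5 and limma without a trend kept -1.42 and 0.88. Gm6977, the copy of Fth1, added no reads. The replicate block gave the same estimates as leaving out Fth1-deleted 4 (-1.09 and 0.79). The ratio of Ftl1 to Fth1 kept its direction in 12 of 12 (log2 1.89 to 2.67), and so did their sum (-0.54 to -0.38). Multiplying a whole library by a factor cannot move the ratio, and 1 of its 2 genes is the targeted one. For the ratio too, the replicate block gave the value of leaving out Fth1-deleted 4 (1.89). Without 1 library the smallest possible exact p is 0.0667 or 0.1, so those tests cannot pass.

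No difference whose sign changed was called. With the ribosomal RNA covariate Pcbp2 was at -0.13 and Map1lc3b at 0.19. Ireb2 was at -0.043 with TPM and -0.030 with arrayWeights, and from -0.058 to 0.13 with 1 library left out, negative without control 2 (-0.058) and Fth1-deleted 3 (-0.057). Fbxl5 was at 0.034 with arrayWeights, and from -0.31 to 0.22 with 1 library left out, positive without control 2 (0.22) and Fth1-deleted 2 (0.05). The log2 ratio of Pcbp1 to Pcbp2 was -0.0026 with quantile normalization, and from -0.15 to 0.24 with 1 library left out, negative without control 2 (-0.15) and Fth1-deleted 1 (-0.053). The ribosomal RNA covariate moved Pcbp1 to 0.68, Aco1 to -1.13 and Fbxl5 to -1.07, and the cause was not tested.

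Replicate numbers showed no sign of pairing the libraries. Deviations from the group means correlated at 0.0090, 0.061 and -0.037 across genes between same-numbered libraries. Between differently numbered libraries the correlations were -0.090 to 0.080. Such correlations cannot exclude a pairing. With a replicate block, limma called 0 genes (987 at an unadjusted limma p under 0.05), Fth1 was at -1.09 and Ftl1 at 0.79 (adjusted p = 0.684 for both). The block within numbers 1 to 3 gave log2 differences of 1.89 for the ratio of Ftl1 to Fth1, -0.38 for their sum, 0.04 for Pcbp1 to Pcbp2 and -0.41 for Aco1 to Ireb2, where the smallest possible p is 0.25.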

Other observations

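Other ferritin genes were nearly silent. Of 15 named relatives and pseudogenes of the ferritin chains, 11 were listed at 0 in every library, among them the mitochondrial ferritin gene Ftmt and all 9 entries of the X-linked Fthl17 group. The processed pseudogene Fth-ps2 had 58 reads (8.78 FPKM) in Fth1-deleted 3 and 0 in the other libraries. Ftl2-ps, which matches 57.0% of the Ftl1 transcript at 98.7% identity, was at 0.522, 0.120 and 0.601 FPKM in control, 0.821 and 0.532 in Fth1-deleted 1 and 2, and 10.8 and 6.37 in Fth1-deleted 3 and 4.

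Within 100 kb of Fth1, 12 genes are annotated, of which 6 were tested and 6 were listed at 0 in every library. Best1, a chloride channel gene on the opposite strand, whose end lies 76 bases from that of Fth1, had 0 reads in each control library and 298, 198, 255 and 272 reads in Fth1-deleted 1 to 4 (limma adjusted p = 0.026). This was at least 81.4-fold higher, taking 3 reads in a control library as the floor. It is the one neighbour past the threshold, and the call was lost in 10 of 20 alternatives (limma adjusted p 0.00556 to 0.684), among them leaving out control 3 or any 1 of the Fth1-deleted libraries (0.0548 to 0.14). AC132253.4, a non-coding transcript 77.9 kb before Fth1, had 0 reads in each control library and 36, 1, 32 and 37 in Fth1-deleted 1 to 4 (limma adjusted p = 0.444). Incenp, Rab3il1, Fads3 and Fads2 overlapped between the groups. Incenp, a protein of the dividing chromosome's centromere, was at 102 ± 36.1 (SD, n = 3) and 138 ± 16.4 FPKM (n = 4), Rab3il1 at 9.32 ± 10.3 and 7.13 ± 2.83, Fads3 at 20.1 ± 7.13 and 14.1 ± 10.9, and the fatty acid desaturase gene Fads2 at 118 ± 34.2 and 119.8 ± 26.6.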
